A study of Mus musculus with 9 samples.

Results

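Interferon-induced antiviral effectors are the proteins that a cell makes after it has sensed interferon and that block the entry, copying or release of viruses. A list of 38 such genes was followed here through osteoclast differentiation of mouse BM macrophages. The genes were chosen by symbol for their known roles, with earlier results of these data known. All 38 listed were found among the 13526 genes of the expression table. All 38 were also among the 12932 genes tested.

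Bulk RNA-Seq was available for 9 libraries from C57BL/6 mice aged 8 weeks, whose BM macrophages were grown in M-CSF at 10 ng/mL for 3 days. There were 3 libraries from macrophages that then received RANKL plus rmCst6 for 48 hours, 3 from macrophages that received RANKL alone for 48 hours and 3 from control macrophages that received no RANKL. RANKL is the cytokine that drives macrophages toward osteoclasts, and rmCst6 is recombinant cystatin M/E, a secreted inhibitor of cysteine proteases. No group received rmCst6 without RANKL, so an effect of rmCst6 alone cannot be told apart from one that needs RANKL. None received another recombinant protein, so an effect of cystatin M/E itself cannot be told apart from one of anything else in the added preparation. The sources used here do not state the dose of either protein for these cultures, or whether control macrophages were kept for the same 48 hours. Nor do they say what separates the replicates of a group, and p-values therefore cover only the spread between these libraries, which may be technical.

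Type I interferons bind a receptor whose kinases switch on a complex called ISGF3. This complex, which holds STAT2 and IRF9, enters the nucleus and binds the interferon-stimulated response element (ISRE) in the promoters of effector genes. Macrophages make and answer interferon readily, and interferon-β is also known to restrain osteoclast formation in mice. The effectors fall into families that bind viral RNA, destroy RNA, sense foreign nucleic acids, tag proteins with ISG15 or trap virus particles at the membrane.

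The bases in front of several effector genes are shown because the ISRE core is the sequence through which ISGF3 is known to act. The core was searched as GAAANNGAA on both strands, and matches are in capitals, in either orientation. Sequences come from the RefSeq promoter table (GRCm38.p6), read 5′ to 3′ in the direction of the gene. For Ifit3 (chr19:34583279-34583528, plus strand) and Isg15 (chr4:156200819-156201068, minus strand), the 250 bases before the gene start are given. For Ifit1 (chr19:34640760-34640833, plus strand), Ifi44 (chr3:151749885-151749933, minus strand), Rsad2 (chr12:26456543-26456591, minus strand), Oas3 (chr5:120777700-120777754, minus strand) and Bst2 (chr8:71537568-71537622, minus strand), the matches are given with 20 bases on each side, which for Ifi44 spans the gene start.
Ifit3: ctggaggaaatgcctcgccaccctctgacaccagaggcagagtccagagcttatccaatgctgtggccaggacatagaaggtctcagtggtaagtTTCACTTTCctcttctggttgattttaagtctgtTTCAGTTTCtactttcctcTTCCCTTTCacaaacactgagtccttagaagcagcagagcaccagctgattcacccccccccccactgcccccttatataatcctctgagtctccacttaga
Isg15: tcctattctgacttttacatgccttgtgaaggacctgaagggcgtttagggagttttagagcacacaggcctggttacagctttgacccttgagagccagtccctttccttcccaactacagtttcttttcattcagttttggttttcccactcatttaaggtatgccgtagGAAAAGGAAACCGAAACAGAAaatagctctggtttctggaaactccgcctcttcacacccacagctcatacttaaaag
Ifit1: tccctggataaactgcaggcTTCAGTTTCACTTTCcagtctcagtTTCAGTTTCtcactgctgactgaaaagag
Ifi44: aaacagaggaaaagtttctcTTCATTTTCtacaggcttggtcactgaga
Rsad2: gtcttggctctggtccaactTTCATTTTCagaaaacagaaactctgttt
Oas3: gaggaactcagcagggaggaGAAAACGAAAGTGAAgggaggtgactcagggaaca
Bst2: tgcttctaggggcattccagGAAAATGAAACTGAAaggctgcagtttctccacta

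Ifit3, Ifit1 and Isg15 each held 3 matches, and those of Isg15 followed each other with shared bases in a single run. A window of 300 bases, 250 before the gene start and 50 from it on, was present for 28 of the 38 effectors. The ISRE core was found in 13 of these 28 (46.4%), against 9.76% of the 27025 genes with a window and 9.12% of the 10278 tested genes with a window. The 13 were the genes shown together with Ifih1, Adar, Ddx58, Oas1a, Samd9l and Eif2ak2. The GAS element, another element of interferon-responsive promoters, searched as TTCNNNGAA, which reads the same on both strands, was found in 8 of 28 (28.6%), against 9.55% of all genes with a window and 8.5% of those tested. In Bst2 a GAS match overlapped the first ISRE match. Parp9, Mx1, Parp14, Tor3a, Rtp4, Usp18, Zbp1, Mx2, Oas2 and Dhx58 had no window in the table. A match describes letters in a window and does not show that a factor was bound.

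**Figure D1:**
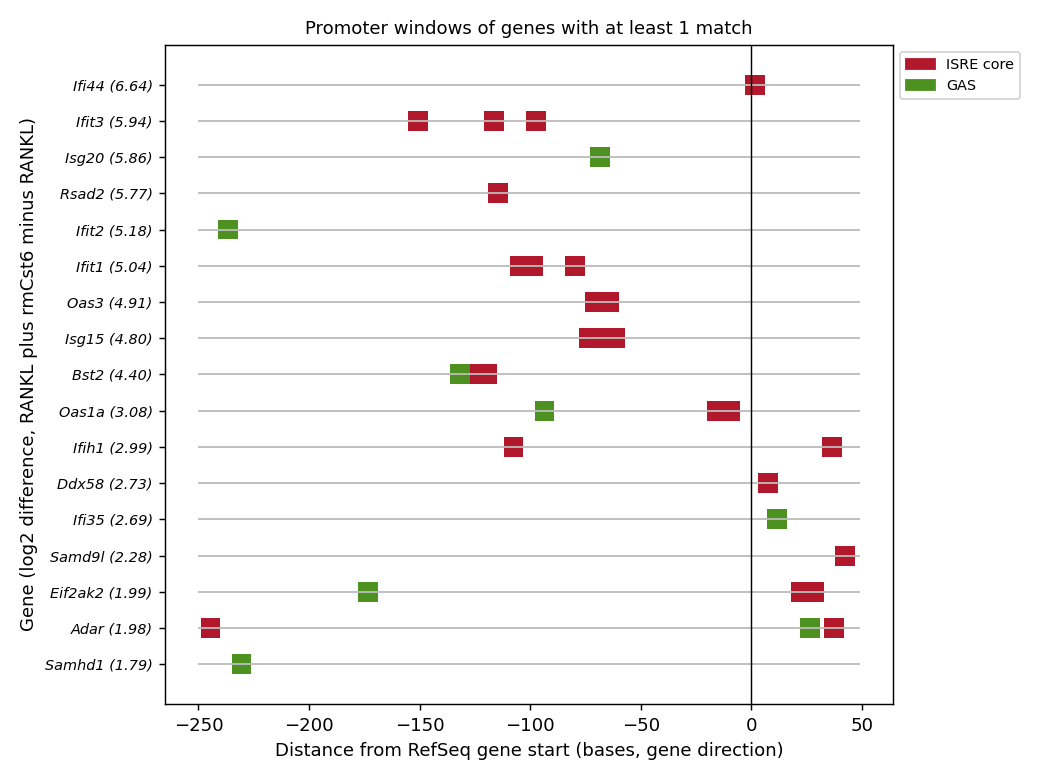
Matches to the ISRE core (red) and GAS (green) in the 17 effector promoters with at least 1 match, by distance from the RefSeq gene start in bases, with genes ordered by their log2 difference between RANKL plus rmCst6 and RANKL. The ISRE matches of Ifit3, Rsad2, Ifit1, Oas3, Isg15 and Bst2 begin between −155 and −66, and those of Ddx58, Samd9l and Eif2ak2 lie after the start.

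RANKL plus rmCst6 was compared with RANKL alone to ask what rmCst6 changed in differentiating cells. All 38 effectors were higher with RANKL plus rmCst6, from 2.6-fold for Pml to 99.6-fold for Ifi44, with a median of 9.9-fold. The highest RANKL library lay below the lowest RANKL plus rmCst6 library for each of the 38. The median log2 fold change of the effectors was 3.31, against −0.0169 over all genes tested.

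By limma with Benjamini-Hochberg adjustment over the 12932 genes, the largest adjusted p among the 38 was 7.68e-11 (Oas2), and standard errors were 0.046 to 0.16. Change was widespread, since 34.8% of all genes tested were called higher, 4908 genes were called lower and 36.4% were higher with no overlap between libraries. At least 4-fold higher were 34 of the 38, against 5.17% of genes tested, and at least 16-fold higher were 17 of the 38, against 1.22%. Values are deposited log2 values that behave as log2 of a normalized value plus 1, and all fold changes are on that scale. On this scale the change of a weakly expressed gene is understated.

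**Figure D2:**
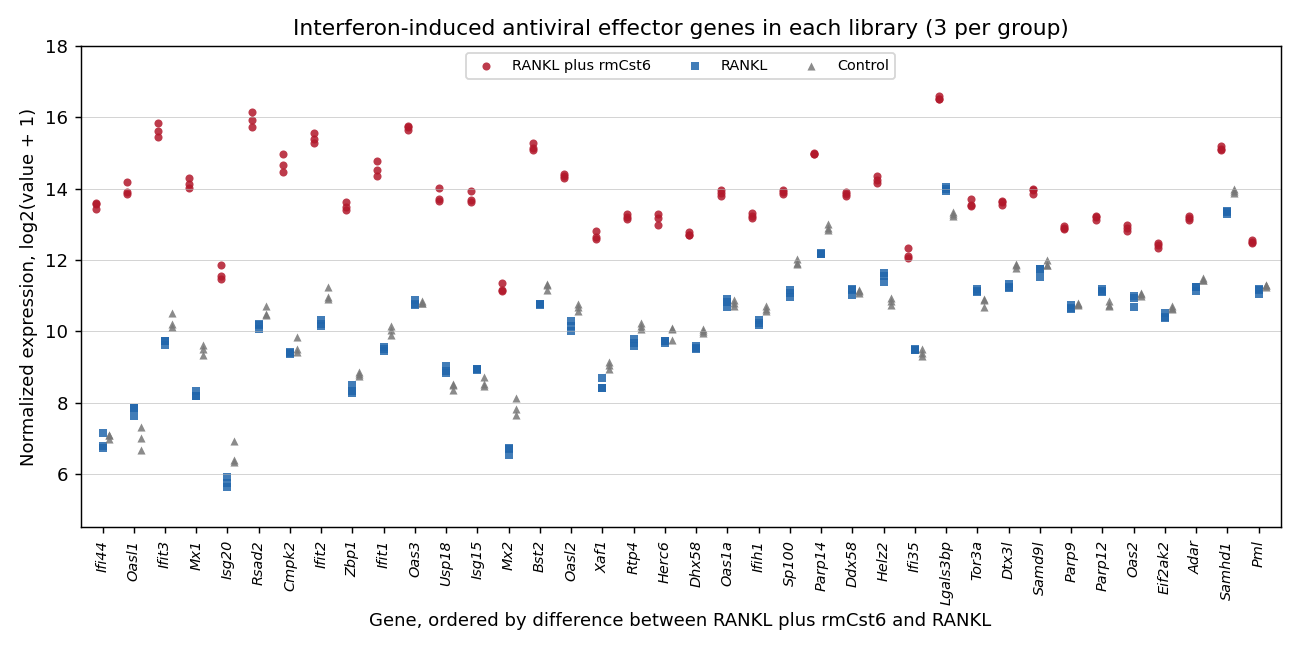
Normalized expression, as log2(value + 1), of the 38 effectors in each library, with RANKL plus rmCst6 as red circles, RANKL as blue squares and control as gray triangles, 3 libraries each. For every gene the red circles lie above the other points, and the gap narrows from Ifi44 on the left (6.64 between RANKL plus rmCst6 and RANKL) to Pml on the right (1.38).

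Markers of other cells also differed between these groups. With rmCst6, all 8 osteoclast markers listed were below their level with RANKL alone, with summed normalized values of 8700 to 11700 with RANKL plus rmCst6, 491000 to 638000 with RANKL and 1790 to 1880 in control. Of these, Calcr and Oscar passed the filter, a normalized value of at least 10 in at least 3 libraries, only with the RANKL libraries counted. Their falls are therefore described and not used as support. All 9 neutrophil markers were higher with RANKL plus rmCst6 than with RANKL, with sums of 45300 to 52800 with RANKL plus rmCst6, 4530 to 8280 with RANKL and 12800 to 18600 in control. All 7 macrophage markers were measured, with sums of 549000 to 594000 with RANKL plus rmCst6, 433000 to 476000 with RANKL and 931000 to 1100000 in control. Lyz2 was the highest of the 7 in every group, and single markers diverged. Csf1r averaged log2 values of 14.5 with RANKL plus rmCst6, 16.1 with RANKL and 17.3 in control. Fcgr1 averaged 15.2, 8.7 and 11.9 in the same order. Of 6 markers of plasmacytoid dendritic cells, which are strong interferon producers, 4 were in the table and summed to 2180 to 2480 with RANKL plus rmCst6, 1370 to 1490 with RANKL and 4670 to 4890 in control. Their defining marker Siglech was low in every group, with log2 values of 2.06, 3.84 and 3.31 with RANKL plus rmCst6, 1.60, 2.47 and 1.73 with RANKL and 3.06, 3.26 and 3.32 in control. Cox6a2, by contrast, was highest with RANKL plus rmCst6, with mean log2 values of 6.70, against 3.00 with RANKL and 1.46 in control. Tcf4, the largest part of the sums, averaged 11.1, 10.5 and 12.2 in the same order. Ccr9 was not called between RANKL plus rmCst6 and RANKL. Of 7 T and NK cell markers, 3 were in the table and summed to 250 to 315 with RANKL plus rmCst6, 215 to 322 with RANKL and 151 to 173 in control. Cd4 was the largest part of these sums, with mean log2 values of 7.91, 8.01 and 7.13 in the same order. Cd3e, Cd3d, Ncr1 and Klrb1c were not in the table. Of 5 B cell markers only Cd79b was in the table, at 75.2 to 82.7 with RANKL plus rmCst6, 32.2 to 54.8 with RANKL and 183 to 219 in control. Both lymphoid sums were small beside those of macrophages. The 5 stromal markers summed to 2470 to 4630 with RANKL plus rmCst6, 2120 to 2800 with RANKL and 4420 to 7640 in control, and 3 of 5 erythroid and megakaryocyte markers to 6320 to 8630 with RANKL plus rmCst6, 643 to 923 with RANKL and 8010 to 8830 in control. The tested markers were also compared between RANKL plus rmCst6 and RANKL. Higher with rmCst6 were 3 of 7 macrophage, 2 of 3 plasmacytoid dendritic cell and 1 of 2 T and NK cell markers. So were 1 of 1 B cell, 3 of 5 stromal and 2 of 2 erythroid and megakaryocyte markers. In these lists only 1 macrophage marker, Csf1r, was lower. Among those called higher, Cox6a2 and Nkg7 passed the filter only with the RANKL plus rmCst6 libraries counted. Their calls are therefore not used as support. Of all genes tested, 34.8% were called higher in this comparison and 4908 of 12932 lower. None of the markers in the table was listed at 0 in all libraries. The part of these cells in the effector results was not tested, and in bulk samples fewer cells of a type and less RNA per cell cannot be told apart.

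The IFIT proteins bind viral RNA that lacks the cap marks of the cell's own RNA and block its translation. All 3 genes measured were higher with RANKL plus rmCst6, by 33.0-fold to 61.2-fold. Ifit3 had log2 values of 15.44, 15.62 and 15.83 with RANKL plus rmCst6, 9.74, 9.62 and 9.73 with RANKL and 10.50, 10.13 and 10.20 in control. All 3 RANKL plus rmCst6 libraries stood more than 4 log2 units above every other library, with a log2 fold change of 5.94 (SE 0.10, adjusted p = 1.41e-13) against RANKL. Ifit1, the member with the smallest change, had 14.35, 14.51 and 14.77 with RANKL plus rmCst6, 9.49, 9.55 and 9.46 with RANKL and 10.16, 10.03 and 9.89 in control, with a log2 fold change of 5.04 (SE 0.093, adjusted p = 2.24e-13) against RANKL. Ifit2 averaged 15.41 ± 0.14 with RANKL plus rmCst6, 10.23 ± 0.084 with RANKL and 11.03 ± 0.18 in control (SD, n = 3 each). The 3 genes lie on the plus strand of chromosome 19 in the GENCODE M21 annotation (GRCm38), in the order Ifit2 (chr19:34550694-34576419), Ifit3 (chr19:34583531-34588731) and Ifit1 (chr19:34640871-34650009). Gaps between them are 7.1 kb and 52.1 kb.

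OAS enzymes make short adenylate chains that switch on RNase L, which then degrades RNA, and Oasl1 is known in mice as a repressor of Irf7 translation. All 5 members were higher with RANKL plus rmCst6, and they spanned nearly the whole range of the effectors, from 4.07-fold (Oas2) to 73.4-fold (Oasl1). Oasl1 had log2 values of 13.85, 13.90 and 14.17 with RANKL plus rmCst6, 7.85, 7.62 and 7.85 with RANKL and 7.31, 7.01 and 6.68 in control. RANKL libraries of Oasl1 also all lay above the control libraries, the widest rise of any effector with RANKL. Oas2 had 12.80, 12.99 and 12.90 with RANKL plus rmCst6, 10.69, 10.98 and 10.95 with RANKL and 11.04, 11.08 and 11.00 in control, with a log2 fold change of 2.03 (SE 0.074, adjusted p = 7.68e-11) against RANKL. Its RANKL libraries lay just below its control libraries. Oas3, the longest of these enzymes, rose 30.1-fold and averaged 15.70 ± 0.057 with RANKL plus rmCst6, 10.79 ± 0.075 with RANKL and 10.81 ± 0.032 in control (SD, n = 3 each). Oasl2 rose 18.5-fold and averaged 14.35 ± 0.046 with RANKL plus rmCst6, 10.14 ± 0.15 with RANKL and 10.66 ± 0.10 in control. Oas1a rose 8.46-fold and averaged 13.88 ± 0.084 with RANKL plus rmCst6, 10.80 ± 0.11 with RANKL and 10.79 ± 0.091 in control. Oas2, Oas3 and Oas1a lie within 1 cluster on chromosome 5, and Oasl2 and Oasl1 lie 11.0 kb apart on the same chromosome. Neighbors within both clusters differed in the size of the rise.

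MX proteins are dynamin-like GTPases that trap viral nucleocapsids. Mx1 rose 60.3-fold and Mx2 23.7-fold with rmCst6. Mx1 had log2 values of 14.01, 14.14 and 14.28 with RANKL plus rmCst6, 8.33, 8.17 and 8.18 with RANKL and 9.62, 9.34 and 9.51 in control. Mx2 had 11.12, 11.17 and 11.34 with RANKL plus rmCst6, 6.69, 6.72 and 6.54 with RANKL and 8.13, 7.81 and 7.66 in control. Both genes show the same order of groups without overlap, with RANKL plus rmCst6 highest, control next and RANKL lowest. Fold changes against RANKL were 5.91 (SE 0.084, adjusted p = 3.77e-14) for Mx1 and 4.57 (SE 0.12, adjusted p = 3.61e-12) for Mx2 on the log2 scale. Many inbred mouse strains, C57BL/6 among them, carry a defective Mx1 allele, and the annotation lists Mx2 as a polymorphic pseudogene, so these values describe RNA and not antiviral protein.

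Among the 5 sensors of foreign nucleic acid, Zbp1, which recognizes Z-form nucleic acids and can start cell death, showed the largest rise at 35.0-fold. Zbp1 had log2 values of 13.39, 13.48 and 13.62 with RANKL plus rmCst6, 8.32, 8.50 and 8.27 with RANKL and 8.80, 8.86 and 8.74 in control, with a log2 fold change of 5.13 (SE 0.076, adjusted p = 4.95e-14) against RANKL. Eif2ak2, which encodes the kinase PKR that stops translation on binding double-stranded RNA, showed the smallest at 3.97-fold. Its log2 values were 12.34, 12.47 and 12.42 with RANKL plus rmCst6, 10.39, 10.37 and 10.51 with RANKL and 10.71, 10.64 and 10.62 in control. The groups did not overlap in either gene. Among the cytoplasmic RNA helicases, Dhx58 (LGP2) rose 9.07-fold, Ifih1 (MDA5) 7.93-fold and Ddx58 (RIG-I) 6.64-fold. Dhx58, which tunes the other helicases, averaged 12.73 ± 0.059 with RANKL plus rmCst6, 9.55 ± 0.044 with RANKL and 10.01 ± 0.064 in control (SD, n = 3 each). Ifih1, which binds long double-stranded RNA, averaged 13.24 ± 0.075 with RANKL plus rmCst6, 10.25 ± 0.072 with RANKL and 10.63 ± 0.066 in control. Ddx58, which binds RNA with an uncapped end, averaged 13.85 ± 0.046 with RANKL plus rmCst6, 11.12 ± 0.10 with RANKL and 11.12 ± 0.043 in control.

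ISG15 is a ubiquitin-like protein that is attached to other proteins, Herc6 is the ligase that attaches it in mice, and Usp18 removes it and also restrains signaling at the interferon receptor. All 3 genes were higher with RANKL plus rmCst6, including the negative regulator Usp18 at 29.5-fold. Usp18 had log2 values of 13.66, 13.70 and 14.01 with RANKL plus rmCst6, 9.02, 8.88 and 8.82 with RANKL and 8.53, 8.35 and 8.49 in control, with a log2 fold change of 4.88 (SE 0.092, adjusted p = 2.49e-13) against RANKL. Isg15 had 13.62, 13.67 and 13.92 with RANKL plus rmCst6, 8.95, 8.94 and 8.91 with RANKL and 8.73, 8.53 and 8.47 in control, a 27.9-fold rise over RANKL. In both genes the RANKL libraries lay above the control libraries, unlike in most effectors. Herc6 rose least, 10.8-fold, with log2 values of 12.97, 13.17 and 13.30 with RANKL plus rmCst6, 9.66, 9.74 and 9.74 with RANKL and 10.09, 9.75 and 10.07 in control. Its RANKL libraries lay just below those of control.

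The enzymes that act on nucleotides or RNA split into members with large and members with small rises. Isg20 (an exonuclease that degrades RNA), Rsad2 (viperin, which makes a chain-ending nucleotide) and Cmpk2 (a mitochondrial nucleotide kinase) rose 58.0-fold, 54.7-fold and 39.5-fold. Adar, which edits adenosine to inosine in double-stranded RNA, rose 3.93-fold and Samhd1, which depletes deoxynucleotides, 3.47-fold. Isg20 had log2 values of 11.46, 11.54 and 11.86 with RANKL plus rmCst6, 5.76, 5.90 and 5.62 with RANKL and 6.92, 6.33 and 6.40 in control, with a log2 fold change of 5.86 (SE 0.16, adjusted p = 6.05e-12) against RANKL. Samhd1 had 15.09, 15.10 and 15.20 with RANKL plus rmCst6, 13.30, 13.36 and 13.35 with RANKL and 13.98, 13.88 and 13.95 in control, with a log2 fold change of 1.79 (SE 0.046, adjusted p = 3.03e-12) against RANKL. No groups overlapped in either gene, and control lay between the other groups in both. Rsad2 averaged 15.93 ± 0.20 with RANKL plus rmCst6, 10.16 ± 0.077 with RANKL and 10.54 ± 0.14 in control (SD, n = 3 each). Cmpk2 averaged 14.70 ± 0.25 with RANKL plus rmCst6, 9.39 ± 0.035 with RANKL and 9.59 ± 0.22 in control. Adar averaged 13.18 ± 0.057 with RANKL plus rmCst6, 11.21 ± 0.060 with RANKL and 11.46 ± 0.024 in control. Rsad2 and Cmpk2 lie head to head on chromosome 12, 12.8 kb apart.

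The 4 ADP-ribosylation genes rose by similar amounts, from 4.13-fold (Parp12) to 6.99-fold (Parp14). Parp9 and Dtx3l encode partners in a complex that ubiquitinates proteins, and Parp12 and Parp14 are mono-ADP-ribosyltransferases. Parp14 had log2 values of 14.97, 14.97 and 15.01 with RANKL plus rmCst6, 12.16, 12.18 and 12.18 with RANKL and 13.00, 12.84 and 12.90 in control, with a log2 fold change of 2.81 (SE 0.046, adjusted p = 9.04e-14) against RANKL. Parp12 had 13.12, 13.19 and 13.24 with RANKL plus rmCst6, 11.10, 11.12 and 11.19 with RANKL and 10.84, 10.75 and 10.72 in control. RANKL alone lay below control for Parp14 and above control for Parp12, while RANKL plus rmCst6 was highest for both. Dtx3l rose 5.09-fold and averaged 13.61 ± 0.063 with RANKL plus rmCst6, 11.26 ± 0.069 with RANKL and 11.84 ± 0.056 in control (SD, n = 3 each). Parp9 rose 4.7-fold and averaged 12.91 ± 0.048 with RANKL plus rmCst6, 10.68 ± 0.051 with RANKL and 10.77 ± 0.032 in control. Dtx3l and Parp9 overlap on opposite strands of chromosome 16. The kit was stranded, and the sources used here do not state whether reads were counted by strand, so reads from the shared stretch may not be separated.

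Pml and Sp100 are scaffold proteins of nuclear bodies, which silence viral genomes. Pml had the smallest rise of the 38 effectors, 2.6-fold, and Sp100 rose 7.12-fold. Pml had log2 values of 12.48, 12.51 and 12.56 with RANKL plus rmCst6, 11.20, 11.06 and 11.16 with RANKL and 11.31, 11.30 and 11.23 in control, with a log2 fold change of 1.38 (SE 0.049, adjusted p = 6.27e-11) against RANKL. Sp100 had 13.84, 13.90 and 13.95 with RANKL plus rmCst6, 10.96, 11.09 and 11.15 with RANKL and 12.04, 11.88 and 11.92 in control, with a log2 fold change of 2.83 (SE 0.060, adjusted p = 5.56e-13) against RANKL. Even for Pml, the lowest library with RANKL plus rmCst6 was more than 1 log2 unit above the highest library of the other groups.

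Of the 9 effectors at membranes, in the cytoplasm or secreted, all were higher with RANKL plus rmCst6, and Ifi44, an interferon-induced cytoplasmic protein, had the largest rise of all 38. Ifi44 had log2 values of 13.42, 13.57 and 13.59 with RANKL plus rmCst6, 6.72, 7.16 and 6.79 with RANKL and 7.08, 6.98 and 7.10 in control, with a log2 fold change of 6.64 (SE 0.11, adjusted p = 9.04e-14) against RANKL. Its RANKL libraries overlapped those of control. Samd9l, a cytoplasmic restriction factor for poxviruses, had the smallest rise of this group at 4.86-fold, with 13.86, 13.97 and 13.99 with RANKL plus rmCst6, 11.51, 11.74 and 11.73 with RANKL and 11.87, 11.85 and 12.00 in control. Bst2 (tetherin, which holds budding virions at the cell surface) rose 21.1-fold, Xaf1 (a proapoptotic protein) 18.1-fold and Rtp4 (a receptor chaperone) 11.5-fold. Bst2 averaged 15.16 ± 0.10 with RANKL plus rmCst6, 10.76 ± 0.019 with RANKL and 11.26 ± 0.087 in control (SD, n = 3 each). Xaf1 averaged 12.68 ± 0.11 with RANKL plus rmCst6, 8.50 ± 0.16 with RANKL and 9.05 ± 0.091 in control. Rtp4 averaged 13.21 ± 0.075 with RANKL plus rmCst6, 9.68 ± 0.10 with RANKL and 10.15 ± 0.082 in control. Smaller rises were found for Helz2, a helicase that acts as a nuclear receptor coactivator (6.58-fold), Ifi35 (6.44-fold), Lgals3bp, a secreted galectin-binding glycoprotein (5.87-fold), and Tor3a, an ATPase of the endoplasmic reticulum (5.43-fold). Helz2 averaged 14.25 ± 0.10 with RANKL plus rmCst6, 11.53 ± 0.12 with RANKL and 10.83 ± 0.10 in control (SD, n = 3 each). Ifi35 averaged 12.17 ± 0.16 with RANKL plus rmCst6, 9.49 ± 0.025 with RANKL and 9.41 ± 0.094 in control. Lgals3bp averaged 16.54 ± 0.055 with RANKL plus rmCst6, 13.99 ± 0.059 with RANKL and 13.28 ± 0.059 in control. These 3 genes were not lower with RANKL than in control, unlike Bst2, Xaf1 and Rtp4. Tor3a, which was also above control with RANKL, averaged 13.58 ± 0.11 with RANKL plus rmCst6, 11.14 ± 0.046 with RANKL and 10.82 ± 0.12 in control.

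**Figure D3:**
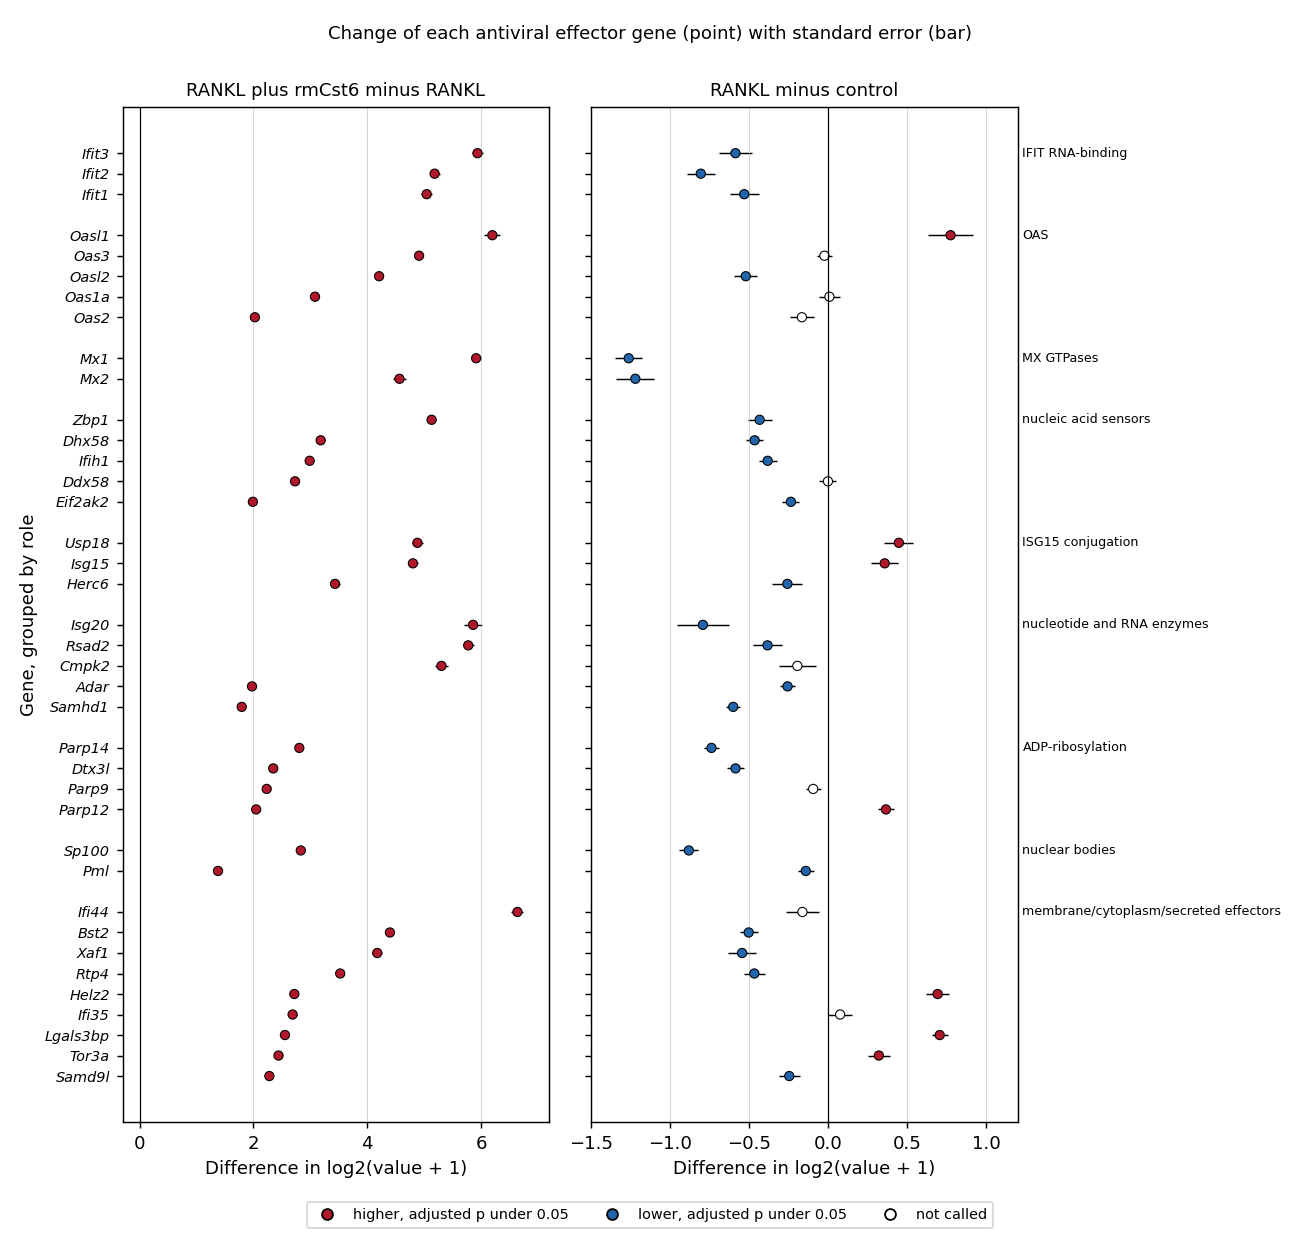
Log2 difference of each effector (point) with its standard error (bar) between RANKL plus rmCst6 and RANKL (left) and between RANKL and control (right, on a narrower axis), with genes grouped by role and points colored by the limma call. All 38 points lie above 1 on the left, whereas on the right 7 are called higher, 23 lower and 8 are not called.

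Levels of different genes were compared per kilobase of merged exon length. With RANKL plus rmCst6, Bst2 had the highest mean at 4.059e+04 normalized units per kilobase, followed by Lgals3bp (3.357e+04), Ifit3 (2.924e+04), Isg15 (1.812e+04), Rsad2 (1.451e+04) and Ifit2 (1.113e+04). Mx2 was lowest at 657.2. With RANKL alone and in control, Lgals3bp ranked first at 5718 and 3503 units per kilobase, and Ifi44 last at 19.35 and 21.49.

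RANKL alone was compared with control to ask how the effectors moved during differentiation without rmCst6. The changes were small and ran in both directions. Of the 38 effectors, 23 were lower (60.5%, against 35.9% of all genes tested), 7 were higher (18.4%, against 36.6%) and 8 were not called. The median log2 fold change was −0.26, against −0.0144 over all genes, and only Mx1 and Mx2 changed by at least 2-fold. Libraries did not overlap for 32 of the 38, with 25 below control and 7 above it. Of all genes tested, 37.6% lay below control with no overlap and 37.8% above it.

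The genes with the largest falls were Mx1, with a log2 fold change of −1.26 (SE 0.084, adjusted p = 3.31e-08), Mx2, with a log2 fold change of −1.22 (SE 0.12, adjusted p = 1.32e-06), and Sp100, with a log2 fold change of −0.88 (SE 0.060, adjusted p = 3.85e-08), all by limma. Falls of more than 0.7 on the log2 scale were also found for Ifit2 (−0.80), Isg20 (−0.79) and Parp14 (−0.74). All 3 IFIT genes, both MX genes and both nuclear body genes were lower with RANKL. Of the 5 sensors, 4 were lower and Ddx58 was not called, at 11.00, 11.15 and 11.19 with RANKL, against 11.15, 11.07 and 11.13 in control. Samhd1 had a log2 fold change of −0.60 with an SE of 0.046, Dtx3l was at −0.58 and Ifit3 at −0.59. Among the calls with high adjusted p were the falls of Pml (−0.14, adjusted p = 0.0211) and Herc6 (−0.26, adjusted p = 0.0269), and both calls were lost when certain single libraries were left out. Herc6 was not called without control replicate 1 (adjusted p = 0.107), control replicate 3 (0.1) or RANKL replicate 1 (0.0778). Pml was not called without control replicate 1 (adjusted p = 0.072), control replicate 2 (0.056) or RANKL replicate 2 (0.0965).

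The 7 effectors that were higher with RANKL came from several families. Oasl1 had the largest rise, with a log2 fold change of 0.78 (SE 0.14, adjusted p = 0.000286) by limma. Lgals3bp rose by 0.71 and had log2 values of 13.93, 14.04 and 14.00 with RANKL, against 13.35, 13.28 and 13.23 in control. Helz2 rose by 0.69 and had 11.39, 11.56 and 11.63 with RANKL, against 10.85, 10.73 and 10.92 in control. Usp18 (0.45), Parp12 (0.37), Isg15 (0.36) and Tor3a (0.32) rose by less, and the libraries of the groups did not overlap in any of the 7. Thus Isg15 and its protease Usp18 were higher with RANKL. The ligase Herc6 was lower only by a call that was lost without certain single libraries. It was also lost in limma without the trend (adjusted p = 0.0728).

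Among the 8 effectors not called between RANKL and control, Cmpk2 had a log2 fold change of −0.19 (adjusted p = 0.157), with 9.36, 9.39 and 9.43 with RANKL, against 9.83, 9.42 and 9.51 in control. Ifi35 had 0.077 (adjusted p = 0.381), with 9.48, 9.46 and 9.51 with RANKL, against 9.51, 9.40 and 9.32 in control. Ifi44 had −0.16 (adjusted p = 0.188). Of the OAS genes, Oas2 had −0.17 (adjusted p = 0.0604), Oas3 −0.023 (adjusted p = 0.688, SE 0.049) and Oas1a 0.0091 (adjusted p = 0.911, SE 0.067). Parp9 had −0.094 (adjusted p = 0.0875), and Ddx58 had a difference near 0 with an SE of 0.054. Oas2 and Parp9 had RANKL libraries below all control libraries even though the test was not passed. The signs of Oas1a, Ddx58, Ifi35 and Oas3 changed under other scalings or with single libraries left out.

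RANKL plus rmCst6 was also set against control, which shares its libraries with the comparisons above. All 38 effectors were higher than in control macrophages, against 36.7% of genes called higher and 35.1% lower among all genes tested. The median was 9.31-fold, 31 of 38 rose by at least 4-fold (4.72% of all genes tested) and 13 by at least 16-fold (1.18% of all genes tested). Log2 fold changes ran from 1.19 for Samhd1 to 6.97 for Oasl1, and the groups overlapped for none of the 38, whereas 38.7% of all genes tested lay above control with no overlap. For Mx1 the rise over control was 4.65 and over RANKL 5.91, and for Oasl1 it was 6.97 over control and 6.20 over RANKL.

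The interferon pathway above the effectors was described with 21 genes chosen by role, of which 20 were in the table. With RANKL plus rmCst6, 15 were higher than with RANKL, 2 were lower and 3 were not called, with a median log2 fold change of 0.90. Of all genes tested, 34.8% were called higher and 4908 of 12932 lower. Ifnb1, which encodes interferon-β, had log2 values of 7.86, 7.81 and 8.54 with RANKL plus rmCst6, 1.79, 0.99 and 2.29 with RANKL and 2.74, 1.00 and 0 in control, where 0 is the lowest value in the table. Ifnb1 was near the bottom of the table without rmCst6 and clearly above it in all 3 RANKL plus rmCst6 libraries. Its log2 fold change against RANKL was 6.38 (SE 0.60). Ifnb1 passed the filter, a normalized value of at least 10 in at least 3 libraries, only through the RANKL plus rmCst6 libraries. Its test is therefore not used as support, although the 15 genes called higher and the median above include it. Of the ISGF3 subunits, Stat2 rose 23.2-fold and Irf9 2.85-fold. Irf7, the factor that amplifies interferon production, had 16.52, 16.56 and 16.64 with RANKL plus rmCst6, 10.45, 10.51 and 10.55 with RANKL and 10.79, 10.60 and 10.62 in control.

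Receptor and Janus kinase genes changed by less than 1 log2 unit. Ifnar2 rose by 0.87 on the log2 scale, whereas Ifnar1 (0.12, adjusted p = 0.0822), Jak1 (−0.082, adjusted p = 0.102) and Irf3 (−0.13, adjusted p = 0.168) were not called by limma. Tyk2 rose by 0.21. Of the adaptors and upstream sensors, Cgas rose 5.42-fold. Trim25 (1.64), Ikbke (1.41), Tbk1 (0.53) and Sting1 (0.40) also rose on the log2 scale. Mavs, through which Ddx58 and Ifih1 signal, was lower. Its log2 values were 10.22, 10.15 and 10.03 with RANKL plus rmCst6, 11.07, 11.02 and 11.03 with RANKL and 10.93, 10.97 and 10.90 in control. The other gene that was lower was Socs3, a negative regulator, with a log2 fold change of −0.99. The other negative regulators listed, Socs1 and Ptpn6, rose by 1.95 and 0.60. Thus RNA of both helicase sensors rose while RNA of their shared adaptor fell. With RANKL alone, 13 of the 20 pathway genes were lower than in control, 2 were higher and 5 were not called, with a median of −0.56, beside 35.9% called lower and 36.6% called higher among all genes tested.

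Some effectors share sequence with near-identical copies, so their values may hold reads of more than 1 gene. Of all 31-base words in Oas1a transcripts, 68.8% also occur in other genes, nearly all in Oas1g, and 61.8% of those in Ifit3 occur in Ifit3b. Herc6 (13.8%), Isg15 (12.8%), Rtp4 (12.5%) and Ifit1 (10.5%) were the other members over 10%, and 19 of the 38 shared at most 1%. The copies Ifit3b and Oas1g had rows of their own and rose as well with RANKL plus rmCst6, with log2 fold changes against RANKL of 6.28 and 4.17. Other genes related by name, not shown to be near-identical, also rose, by 6.93 for Ifit1bl1, 4.05 for Oas1b and 3.04 for Oas1c. How reads were divided between Ifit3 and Ifit3b or between Oas1a and Oas1g cannot be told from these values.

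On the chromosomes, the 38 genes lie on 14 chromosomes, and 15 have another member within 250 kb. Besides the groups named above, these are Parp14, Dtx3l and Parp9 on chromosome 16, and Mx1 and Mx2 on the same chromosome, 72.4 kb apart. The 13 genes with an ISRE core match had a median log2 fold change with rmCst6 of 4.40 (1.98 to 6.64), the 15 with a window but no match 2.83 (1.38 to 6.20) and the 10 without a window 3.35. These ranges overlap almost wholly, and genes with no match in the window included Oasl1.

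Libraries within a group did not vary independently from gene to gene. Among the RANKL plus rmCst6 libraries, replicate 3 held the highest value for 35 of the 38 effectors and replicate 1 the lowest for 35, whereas of all genes tested 38.2% were highest in replicate 3 and 34.0% were lowest in replicate 1. The mean deviation of the 38 genes from their group means was 0.108 in replicate 3, −0.0141 in replicate 2 and −0.0939 in replicate 1 on the log2 scale. In control, replicate 1 was highest for 30 of 38 (33.8% of all genes tested), with a mean deviation of 0.0935. Effectors therefore deviated together, and the 38 calls are not independent observations. The median log2 fold change against RANKL was 3.25 without RANKL plus rmCst6 replicate 3 and 3.36 without replicate 1, and all 38 were called in both cases. Summed normalized values per library were 3.04e+07 to 3.14e+07 with RANKL plus rmCst6, 2.77e+07 to 2.80e+07 with RANKL and 2.77e+07 to 2.88e+07 in control, and the number of reads behind them is unknown.

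**Figure D4:**
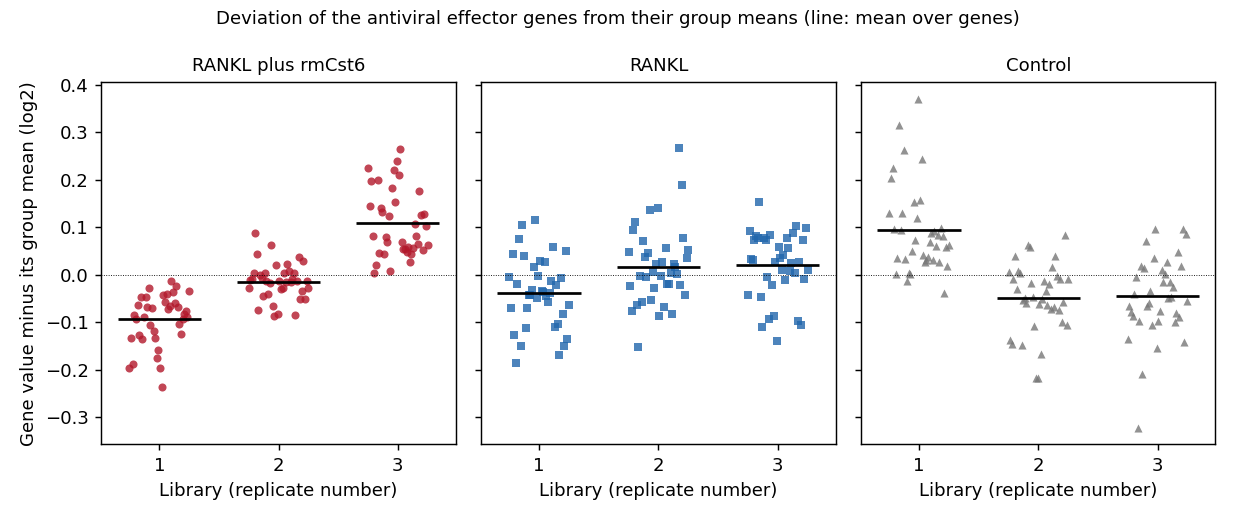
Value of each of the 38 effectors minus its group mean, in log2 units, for each library of RANKL plus rmCst6, RANKL and control, with a line at the mean over genes. With RANKL plus rmCst6, replicate 3 sits above and replicate 1 below the group mean for nearly all genes (means 0.108 and −0.0939), and in control, replicate 1 sits above (0.0935).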

How the data were processed

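Bulk RNA-Seq of 9 libraries was used, 3 per group, with groups and replicate numbers taken from the sample titles. Expression of 13526 genes was deposited as log2 values that the authors had already normalized. The GRCm38.p6 build, DESeq2 and Salmon 1.2.1 are named without roles in the submitters' processing notes. The filter behind the table was not given in the sources used here. Reads could not be recovered from low values (a fitted step gave multiples within 0.02 for 38.8% to 55.4% of linear values under 10), and no count model or counting interval was used. Precision rests on 3 replicates per group.

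Genes with a normalized value of at least 10 in at least 3 libraries were kept (12932 tested, 594 left out). limma 3.58.1 in R 4.3.3 was run on all 9 libraries together, with 1 mean per group and a mean-variance trend. P-values were two-sided and adjusted by the Benjamini-Hochberg method over all tested genes, with calls under 0.05. The fit was tested on simulated data. Per-library values are given for the members of each role group with the largest and the smallest change with rmCst6. They are also given for some members that were not called or moved against the others. Of such members, Oas1a, Oas3, Parp9 and Tor3a are given only as means with SD. The members and lists were chosen with earlier results of these data known. A result on 1 pathway gene is not reported here. Gene positions and shared words came from GENCODE M21 (GRCm38), and promoters from RefSeq. The alternatives were each library left out in turn, a replicate block, the compared groups alone, limma robust or without its trend, median centring or quantile normalization, 8 more added to linear values, and other filters.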

Additional observations from a re-analysis of the deposited data

How the results depend on the processing

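All 38 effectors remained higher with RANKL plus rmCst6 than with RANKL and than in control in each of the 18 alternatives fitted, with log2 fold changes of at least 1.33 and 0.86 and adjusted p of at most 4.36e-07 and 7.5e-07 by limma. Between RANKL and control, 7 effectors were higher in each of these 18, and 27 were lower after quantile normalization, 28 after median centring, 22 without the trend and 21 to 25 with single libraries left out, against 23. Over all genes tested, lower calls also increased, to 5172 after quantile normalization and 5433 after median centring, against 4644. Median centring moved the median of all genes to −0.121, from −0.0144. With a threshold of at least 2-fold, added after the data were seen, 0 were higher and 2 lower.

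Only values near 0 changed sign between RANKL and control. Oas1a was −0.0366 after quantile normalization, −0.0976 after median centring and −0.0382 to 0.0723 with single libraries left out. Ddx58 was 0.00331 after quantile normalization, 0.0142 minus the median of all genes, also added after the data were seen, and −0.0383 to 0.0562 with single libraries left out. Ifi35 was −0.0262 after quantile normalization and −0.0300 after median centring. Oas3 was −0.0639 to 0.00861 with single libraries left out. The cause was not tested.

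Same-numbered libraries showed no strong shared deviation, since their deviations correlated at −0.0776 to 0.0706. This does not show whether they came from the same mice or cultures. With the replicate number as a block, all 38 effectors were again higher with RANKL plus rmCst6 than with RANKL, and 24 were lower with RANKL than in control, with Oas2 added (adjusted p = 0.0267 by limma). Depth is unknown, which limits the precision of low values such as Ifnb1.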
